A study of Mus musculus with 12 samples.

Results

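The comparison set 4 libraries of long labelling with 4-thiouridine (4sU), 90 and 120 min, against 4 libraries of short labelling, 15 and 30 min, gene by gene. These 8 of the 12 libraries of the series were chosen by their labelled duration alone. All came from NIH-3T3, an immortalised line of wild-type mouse embryonic fibroblasts, kept in DMEM with NCS, and all 8 received 4sU at 800 µM. Each duration had 2 replicates, A and B. The 60 min pair and the unlabelled pair (no4sU) took no part in the main tests, only in alternative fits, and are given beside some of the results. The labels do not say whether A and B were separate cultures, so p-values measure the spread between these libraries, which may be technical. NIH-3T3 is a single established line grown on plastic, and how its genes respond need not hold in primary fibroblasts.

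Cells take up 4sU, an analogue of uridine, and use it in place of uridine in the RNA they transcribe. In SLAM-seq, iodoacetamide alkylates the incorporated 4sU, which is then read as C where the gene has T, so that reads from RNA made during labelling carry T-to-C changes. From these the authors estimated the new-to-total ratio of each gene and library. The posterior maximum of this ratio (MAP) runs from 0, no new RNA, to 1, all RNA made since 4sU was added. Transcripts with a fast turnover, such as those of serum response genes, reach a MAP near 1 within the longest labelling, whereas stable transcripts, such as those of ribosomal proteins, stay low. Read counts do not use the conversions and hold old and new RNA together. The study's title states its interest in how the duration of labelling biases quantification, and counts of the same cells at short and long durations bear on that question.

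The 8 libraries held between 9917026 and 13671419 reads. Of 17419 genes, 11480 had enough reads to be tested. All 10 fibroblast markers checked were present, with a summed level of 17100 to 17800 CPM (the number of reads scaled to a common library size) in the short libraries and 18900 to 20500 CPM in the long ones. The immune markers, mostly Cd68, summed to 4.36 to 5.36 CPM in the short and 5.93 to 7.34 CPM in the long libraries, with no overlap, and Cd68 was called higher (log2 0.39). This call was lost without 15 min replicate B, and DESeq2 did not make it. The part of other cells in the results was not tested. Summed levels over the 8 libraries were at most 1.07 CPM for the epithelial markers, 2.40 CPM for the endothelial markers and 1.41 CPM for the neuronal and muscle markers. In bulk RNA, fewer cells that express a gene and less RNA per cell cannot be told apart.

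Long labelling came with small shifts in many genes. By edgeR's quasi-likelihood test, 4081 genes (35.5% of those tested) passed an adjusted p of 0.05, 1859 of them higher (16.2%) and 2222 lower (19.4%) in the long libraries. The median absolute log2 fold change of these genes was 0.19, and 161 of them changed by at least 0.5 on that scale. Every long library lay on the same side of every short library in 3220 genes (28.0%), of which 2797 were past the threshold. CPM is a share of a library, so each rise and fall is relative to the other genes. The split of rises and falls depended on the scaling. With library size alone in place of TMM factors, 1001 genes rose and 2852 fell, and the median gene moved from 0.001 to -0.04. DESeq2 called 2500 genes, a fit with all 12 libraries 2715, and a test against a fold of 1.2 called 155, of which 11 rose.

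Genes that rose held little new RNA and genes that fell held much. The median 120 min MAP, the mean of replicates A and B, was 0.160 among the genes that rose, 0.731 among those that fell and 0.373 among all tested. Ranked by MAP in 10 equal groups, over the 9020 genes whose counts averaged 100 or more, the group with the lowest MAP (902 genes, median 0.106) held 632 that rose and 0 that fell. The group with the highest MAP (median 0.945) held 9 that rose and 627 that fell. The order of the durations was the same on both sides. Among genes whose counts averaged 100 or more, and relative to the mean of the short libraries, the median gene that rose stood at 0.061 (A) and 0.049 (B) in log2 CPM after 60 min. It stood at 0.117 and 0.116 after 90 min, then 0.189 and 0.190 after 120 min. The median gene that fell stood at -0.086 and -0.071 after 60 min. It stood at -0.153 and -0.171 after 90 min, then -0.263 and -0.275 after 120 min. In 88.1% of the genes past the threshold the 60 min mean lay between the short and the long means, against 54.3% of all tested genes. The unlabelled libraries were not alike. The genes that rose were at 0.080 in no4sU replicate A and -0.010 in B, and the genes that fell were at -0.108 and 0.017, so replicate A stood on the side of the long libraries for both sets.

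**Figure D1:**
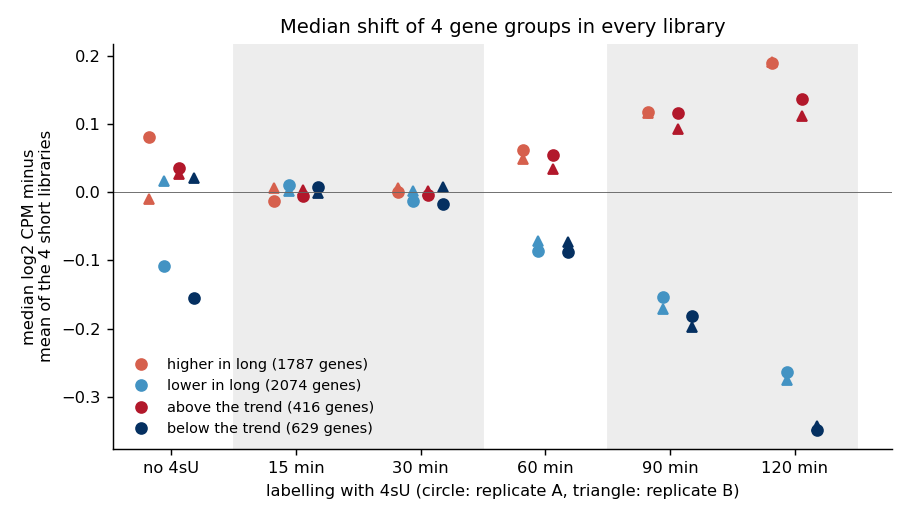
Median log2 CPM of 4 sets of genes (higher, lower, above and below the curve described further on), of genes averaging 100 or more reads, in each of the 12 libraries, minus the mean of the 4 short libraries (y axis), by labelling duration (x axis). Circles are replicate A, triangles replicate B, and the shaded durations are those compared. The sets separate at 60 min, which the main tests did not use, and are furthest apart at 120 min, at 0.189 and 0.190 for the genes that rose and -0.263 and -0.275 for those that fell.

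Among genes averaging 100 or more reads, Malat1 and Kcnq1ot1 stood apart from every other rise. Malat1, an abundant non-coding RNA of nuclear speckles (ENSMUSG00000092341, 19:5795690-5802672 in GENCODE M21 on GRCm38, minus strand), had 1100, 1000, 1130 and 1380 CPM in the short libraries (15 min A and B, then 30 min A and B). In the long libraries (90 min A and B, then 120 min A and B) it had 1860, 2340, 3130 and 3310 CPM. No long library overlapped a short one, and its log2 fold change was 1.17 ± 0.0437 (SE, edgeR adjusted p = 1.7e-22). Its no4sU libraries, at 973 and 1950 CPM, spanned the level of the short libraries and reached into that of the long ones. Kcnq1ot1, the long RNA that silences genes of an imprinted cluster (ENSMUSG00000101609, 7:143203458-143296549, minus strand, annotated as antisense), had 13.9, 13, 14.7 and 14.6 CPM in the short libraries. It had 32.1, 31.1, 46.6 and 47.2 CPM in the long ones, a log2 fold change of 1.45 ± 0.0668 (adjusted p = 1.3e-19). At 60 min its replicates were at 28.5 and 17.9 CPM, and the unlabelled ones at 10.9 and 14 CPM. The sources used here do not give the strand setting of the counts, and reads from Kcnq1, on the opposite strand, cannot be separated from those of Kcnq1ot1.

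The other 8 rises that the rule named were far smaller, with log2 fold changes of 0.31 to 0.41. Tnxb, which encodes tenascin XB of the extracellular matrix, had 25.4, 25.4, 24.6 and 23.7 CPM in the short libraries and 33.5, 30.0, 35.1 and 34.1 in the long ones (0.41 ± 0.0617, edgeR adjusted p = 1.6e-06). Spp1, the secreted phosphoprotein osteopontin, went from 228, 256, 246 and 265 CPM to 317, 275, 348 and 347 (0.36 ± 0.0346, adjusted p = 1.9e-10). The groups do not overlap in either gene, although the lowest long value of Spp1 lay close to its highest short value. Col12a1, a collagen that associates with fibrils, rose from 38.4 ± 1.78 CPM (SD, n = 4, over both durations of an arm, as in all such values) to 48.9 ± 2.86. Ndufa1, a subunit of complex I of the respiratory chain, rose from 25.5 ± 1.78 to 32.1 ± 4.28 CPM, and Uqcc3, an assembly factor of complex III, from 11.5 ± 0.855 to 14.7 ± 1.35 CPM. Akr1c18, an enzyme of progesterone breakdown, rose from 43.0 ± 0.975 to 54.2 ± 4.31 CPM. Its family has near-identical copies, so its reads are uncertain. Dync2h1, the motor of transport within cilia, rose from 15.3 ± 1.65 to 19.0 ± 0.529 CPM, and Cck, the precursor of cholecystokinin, from 95.6 ± 7.72 to 119 ± 8.45 CPM. By edgeR none of these 8 passed the test against a fold of 1.2, which Malat1 and Kcnq1ot1 did. In no4sU replicates A and B, Ndufa1 was at 29.7 and 28.5 CPM and Uqcc3 at 14.7 and 12.8. Akr1c18 was at 50.3 and 50.5 CPM there and Tnxb at 25.7 and 28.3. In each of these genes both unlabelled libraries lay above all short ones. In Spp1 (250 and 277 CPM) and Col12a1 (34.7 and 43.4) only replicate B did. In Dync2h1 (11.9 and 16.5 CPM) and Cck (102 and 87.3) neither lay clearly above.

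The deepest fall the rule named was that of G2e3. G2e3 (ENSMUSG00000035293, 12:51348061-51376986, plus strand), a ubiquitin ligase named for its peak in the G2 phase, had 44.8, 41.5, 42.1 and 44.5 CPM in the short libraries and 26.7, 25.8, 20.7 and 20.7 CPM in the long ones. Its level was lower at 120 than at 90 min in both replicates, 60 min lay between the arms (31.5 and 35.3 CPM), and long differed from short by a log2 fold change of -0.90 ± 0.0592 (SE, edgeR adjusted p = 1e-14). Pcf11, a factor of cleavage and transcription termination at the 3′ end, went from 71.9, 74.8, 69.3 and 74.1 CPM to 47.2, 44.1, 42.0 and 40.1 (-0.75 ± 0.0467, adjusted p = 1.7e-15). Mcl1, a short-lived protein of the Bcl2 family that protects from apoptosis, went from 189, 173, 172 and 189 CPM to 127, 117, 100 and 107 (-0.69 ± 0.0375, adjusted p = 2.2e-17). In these 3 genes the 4 long libraries lay well below all short ones. Wee1, the kinase that holds Cdk1 inactive before mitosis, had 33.1, 33.0, 38.1 and 33.9 CPM in the short libraries and 21.2, 21.6, 23.8 and 19.8 in the long ones (-0.69 ± 0.0662, adjusted p = 1.7e-10). In Wee1 the 90 and 120 min libraries did not differ beyond their spread.

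The remaining 6 falls had log2 fold changes of -0.81 to -0.65. Lemd3, a protein of the inner nuclear membrane that restrains Smad signalling, fell from 33.6 ± 1.41 to 19.7 ± 2.79 CPM (SD, n = 4). Zmym2, a zinc finger protein of corepressor complexes, fell from 41.6 ± 3.02 to 25.6 ± 4.03 CPM. Gen1, the nuclease that resolves Holliday junctions, fell from 20.8 ± 1.32 to 12.8 ± 2.06 CPM, and Stk17b, a kinase of the death-associated family, from 29.0 ± 0.913 to 18.1 ± 2.89 CPM. Lrig2, a membrane protein with leucine-rich repeats, fell from 22.7 ± 0.626 to 14.6 ± 1.68 CPM. Dnm3os, a non-coding RNA that carries microRNAs, fell from 24.8 ± 1.65 to 14.2 ± 1.77 CPM. It lies antisense within Dnm3, so its reads, too, cannot be assigned to a strand. Of these 10 falls, the 10 calls and directions held without any single library, with the largest leave-one-out adjusted p at 2.1e-06 (Gen1), and so did those of the 10 rises (at most 0.036, Uqcc3).

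**Figure D2:**
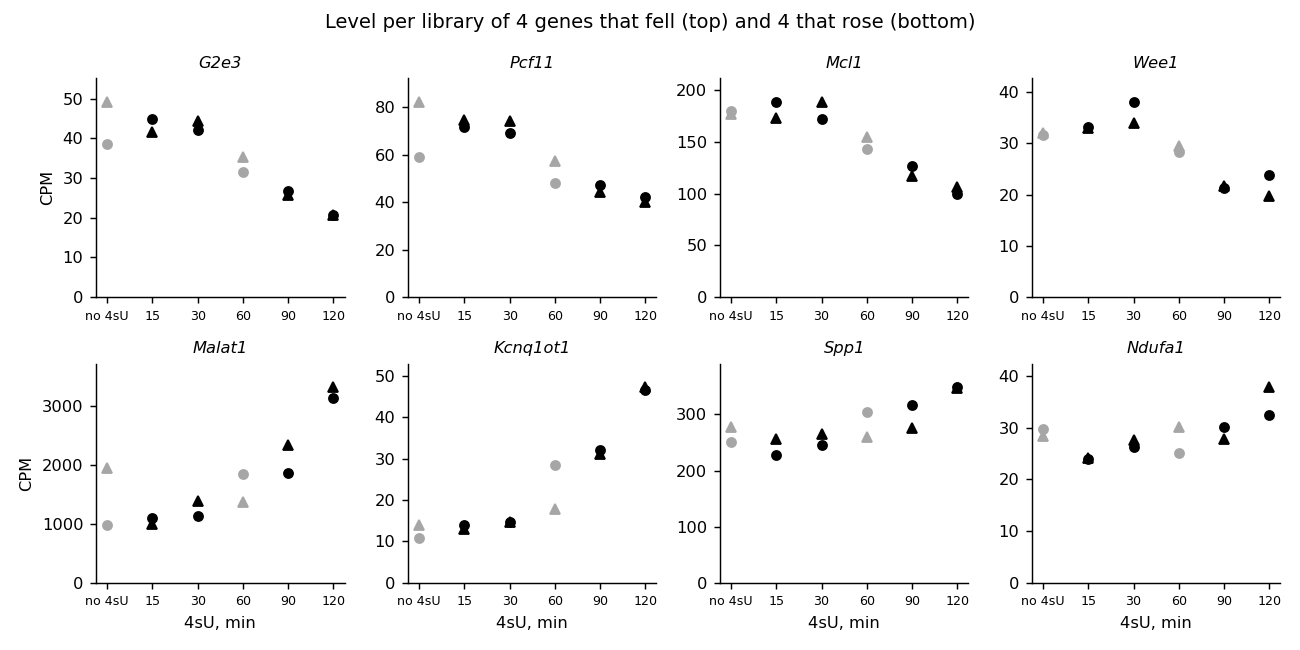
Level in CPM (y axis, from 0) of 4 genes that fell (top row) and 4 that rose (bottom row) in each library, by labelling duration in min (x axis). Circles are replicate A and triangles replicate B, and grey marks are the unlabelled and 60 min libraries, which did not enter the main tests. G2e3 goes from 41.5 to 44.8 CPM in the short libraries to 20.7 CPM in both 120 min libraries, and Malat1 from 1000 to 1380 CPM up to 3130 and 3310 CPM.

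Rises gathered in genes of basic cell functions. Of the 81 cytosolic ribosomal protein genes tested, 80 rose and 0 fell, with a median log2 fold change of 0.17, against 16.2% rising and a median of 0.001 over all tested genes. Rps12 went from 1090 ± 40.8 to 1290 ± 107 CPM (SD, n = 4) and Rpl38 from 240 ± 9.06 to 282 ± 19.3 CPM. In no4sU replicates A and B, Rps12 was at 1270 and 1150 CPM and Rpl38 at 303 and 248 CPM. For both genes unlabelled replicate A thus lay in the range of the long libraries, and B in that of the short ones. Processed pseudogenes copy many ribosomal protein genes, and the sources used here do not say how the authors divided such reads. Of 79 nuclear-encoded subunits of the respiratory chain and ATP synthase, 59 rose and 0 fell (median 0.14). Ndufa13 rose from 53.4 ± 1.99 to 66.2 ± 3.61 CPM and Ndufb6 from 33.1 ± 0.613 to 41.1 ± 1.43 CPM. Of 35 proteasome subunits, 29 rose and 0 fell (median 0.11), among them Psmb5, a catalytic subunit, from 89.1 ± 2.22 to 103 ± 8.46 CPM. Of 17 glycolysis genes, 12 rose and 1 fell. Pkm, pyruvate kinase, rose from 2590 ± 42.1 to 2970 ± 99.3 CPM, and the gene that fell was Hk2, the inducible hexokinase, from 141 ± 7.77 to 115 ± 12.4 CPM. Its MAP of 0.943 stood against 0.113 for Pkm.

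Genes of the fibroblast's own products and frame rose as well. In the extracellular matrix list 20 of 28 rose and 2 fell. Fn1, fibronectin, rose from 6760 ± 208 to 7890 ± 345 CPM and Bgn, the proteoglycan biglycan, from 1830 ± 37.3 to 2130 ± 93.7 CPM. The 2 that fell, Ccn2 (from 586 ± 30.5 to 447 ± 47.7 CPM) and Thbs1 (from 1220 ± 44.9 to 1070 ± 94.1 CPM), encode matricellular proteins induced by serum and had a MAP of 1.00 and 0.682. Among 24 genes of the actin cytoskeleton and adhesion 19 rose, led by Tagln, transgelin, from 234 ± 3.63 to 276 ± 6.31 CPM, and 1 fell, the fibronectin receptor subunit Itga5, from 198 ± 3.61 to 168 ± 7.84 CPM. Lysosomal hydrolases and proton pump subunits rose in 22 of 37 and fell in 1 (0 without 15 min replicate A), with the cathepsin Ctsl from 1270 ± 15.8 to 1440 ± 98.2 CPM. In the endoplasmic reticulum 12 of 19 chaperones and folding enzymes rose, such as P4hb from 1160 ± 11.5 to 1300 ± 39.5 CPM. The 3 that fell, Dnajb9, Herpud1 and Xbp1, are targets or regulators of the unfolded protein response, at -0.33, -0.30 and -0.24 on the log2 scale. Cholesterol genes split evenly, with 8 of 22 rising and 8 falling. Fdps rose from 421 ± 6.31 to 475 ± 25 CPM, while Hmgcs1, an enzyme of the early pathway, fell from 346 ± 9.45 to 273 ± 17.6 CPM.

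The size of these counts depended on scaling and tool more than their direction did. With library size alone, 80 of the cytosolic ribosomal protein genes still rose and 1 fell, but the rises were 36 among respiratory chain subunits, 11 among proteasome subunits, 9 among glycolysis genes, 11 in the matrix list, 12 in the actin list, 14 in the lysosome and 8 in the endoplasmic reticulum list, and the cholesterol list went to 4 rising and 9 falling, with its median turning from 0.01 to -0.03. DESeq2 called 80, 41, 19, 11, 16, 19, 17 and 9 rises in the first 8 of these lists. Without 15 min replicate A, the rises in the endoplasmic reticulum list dropped to 7, and without 90 min replicate A those in the cholesterol list dropped to 4. Smaller shares of the mitochondrial ribosomal proteins (21 of 78, median 0.08, and 12 without 15 min replicate A), translation initiation and elongation factors (23 of 62, with 8 falling, and 4 falling without 120 min replicate B) and aminoacyl-tRNA synthetases (10 of 18, and 6 without 15 min replicate B) rose, and with library size alone these rises were 11, 16 and 1, with 14 translation factors falling. DESeq2 called 3 falls among the translation factors.

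Falls were frequent among regulators of transcription and signalling, whose transcripts held much new RNA. Of 325 tested zinc finger genes of the Zfp series 102 fell and 5 rose (1 rose without 120 min replicate A), with a median log2 fold change of -0.15 and a median MAP of 0.870. The background for falls was 19.4%. Of 12 Klf factors 10 fell and 0 rose (median -0.30). Klf6 went from 200 ± 8.80 to 144 ± 6.18 CPM (SD, n = 4) and Klf3 from 120 ± 3.17 to 89.0 ± 1.71 CPM. Among 15 Id, Hes and TGF-beta feedback genes 11 fell, for example Id2, an inhibitor of basic helix-loop-helix factors, from 60.7 ± 5.69 to 46.2 ± 3.45 CPM, and 0 rose. Of 22 Dusp, Spry and Spred genes, which damp MAP kinase signalling, 12 fell and 0 rose. Dusp10 went from 75.2 ± 0.859 to 58.6 ± 3.48 CPM. Among Egr, Ier and other serum response genes 7 of 13 fell, with Nr4a1, an orphan nuclear receptor, from 251 ± 23.8 to 187 ± 23.3 CPM, and 1 rose, Ier3. Of 17 circadian clock genes 8 fell and 0 rose, among them Clock itself from 79.3 ± 1.49 to 63.2 ± 4.65 CPM. All 4 Clk kinases, which phosphorylate splicing factors of the SR family, fell, with Clk1 from 74.8 ± 6.80 to 56.5 ± 2.69 CPM. The smallest of these falls, that of Clk2 (-0.14 ± 0.0538, edgeR adjusted p = 0.043), was lost without either 15 min library, either 30 min library, 90 min replicate B or 120 min replicate A (adjusted p up to 0.17). Clk2 was chosen after its values were seen.

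Not all short-lived transcripts fell. Myc went from 147 ± 8.75 to 122 ± 9.37 CPM (log2 -0.29, SD over n = 4) and Jun from 158 ± 10.2 to 135 ± 11.9 CPM (log2 -0.24), and Ier2 from 37.1 ± 2.56 to 31.3 ± 2.35 CPM (log2 -0.26). Junb was at 29.8 ± 1.38 CPM in the short and 29.7 ± 2.51 CPM in the long libraries (log2 -0.02 ± 0.0602 SE, edgeR adjusted p = 0.86) with a MAP of 0.956. Fos, at 2.07 ± 0.783 and 2.04 ± 0.325 CPM, had too few reads to show a change of this size. Of the transcripts chosen as long-lived references, Eef1a1 rose by 0.15 and Gapdh by 0.11 on the log2 scale, and Actb by 0.06, a call lost without 15 min replicate B, either 30 min library, 90 min replicate B or 120 min replicate A (adjusted p up to 0.19).

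Falls outnumbered rises in further lists, whose median MAP ran from 0.29 (DNA replication) to 0.71 (integrated stress response). It was 0.33 in the nuclear pore, 0.53 in the decay and ubiquitin and 0.66 in the chromatin list, against 0.37 over all tested genes. Some members named here stood above their list, as Sgo2a at 0.96, Kdm6a at 0.895 and Cnot6l at 0.773. Over all tested genes 16.2% rose and 19.4% fell. Of 48 mitosis genes 25 fell and 0 rose (median -0.10, median MAP 0.45). Kif20b, a kinesin of cytokinesis, went from 114 ± 2.68 to 85.2 ± 10.3 CPM (SD, n = 4), and Sgo2a, a protector of centromere cohesion, from 44.6 ± 1.41 to 32.1 ± 2.59 CPM. DNA replication genes were mixed, with 6 of 50 rising and 12 falling. With library size alone 0 rose and the median went from 0.01 to -0.03, DESeq2 called 2 rises, and 3 rose without 15 min replicate A. In mRNA decay 24 of 40 fell and 1, Btg2, rose. Cnot6l, a deadenylase subunit, went from 47.8 ± 0.960 to 31.3 ± 5.58 CPM and the decapping enzyme Dcp2 from 53.5 ± 1.79 to 40.0 ± 0.604 CPM. Of 232 ubiquitin ligases and deubiquitinases 81 fell and 11 rose, and 7 rose without 15 min replicate A and 3 with library size alone. Of 47 nuclear pore proteins and transport receptors 21 fell and 4 rose, and 2 rose without 30 min replicate A. Nup153, of the nuclear basket, went from 186 ± 6.74 to 138 ± 14.6 CPM. Among 76 chromatin remodellers and histone methylation enzymes 31 fell, such as the demethylases Kdm3a, from 89.5 ± 4.78 to 62.1 ± 5.52 CPM, and Kdm6a, from 26.9 ± 1.57 to 18.8 ± 2.22 CPM. The 5 that rose (3 without 30 min replicate A) included Kmt2d, a histone H3 methyltransferase, from 114 ± 4.53 to 136 ± 10.9 CPM. Of 27 genes of the integrated stress response 14 fell and 4 rose (9 fell without 90 min replicate A). Chac1, which degrades glutathione, went from 50.1 ± 3.77 to 37.8 ± 4.89 CPM, whereas Phgdh, the first enzyme of serine synthesis, went from 454 ± 11.6 to 498 ± 13.9 CPM. DESeq2 called 43 falls among the Zfp genes and 20, 18, 58, 17 and 24 among the mitosis, decay, ubiquitin, nuclear pore and chromatin lists.

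How much of these changes followed the share of new RNA was put in numbers with a smooth curve of the log2 fold change against the 120 min MAP, fitted over those 9020 genes. The curve predicted 0.20 at a MAP of 0.02, 0.08 at 0.2, 0.00 at 0.35, -0.07 at 0.5, -0.18 at 0.75 and -0.24 at 0.99. Each gene was then tested, in the same count model, for a difference between its observed and its predicted change. Of 11479 genes with a MAP, 1125 (9.8%) departed from the curve, 476 above it (4.15%) and 649 below it (5.65%). Most genes that rose or fell did not depart: 11.9% of the genes that rose lay above the curve and 26.1% of those that fell lay below it. No gene rose and lay below it (0 genes by edgeR), and 8 fell and lay above it. A further 246 genes lay above it without passing the test of long against short. The spread of single genes about the curve grew with MAP, from an SD of 0.065 in the group of lowest MAP to 0.168 in that of the highest. This SD includes counting noise, which was not separated. Genes that fell at a MAP above 0.5 had a median count of 459, and genes that rose at a MAP below 0.2 had 1530. Counts of departures moved with the settings. Pooling the 2 durations of an arm gave 281 above and 397 below, a curve that scales each library's own MAP as lost reads gave 817 above, and the fit without 15 min replicate A gave 255 above and 400 below. Without 15 min replicate B, 311 genes lay above.

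**Figure D3:**
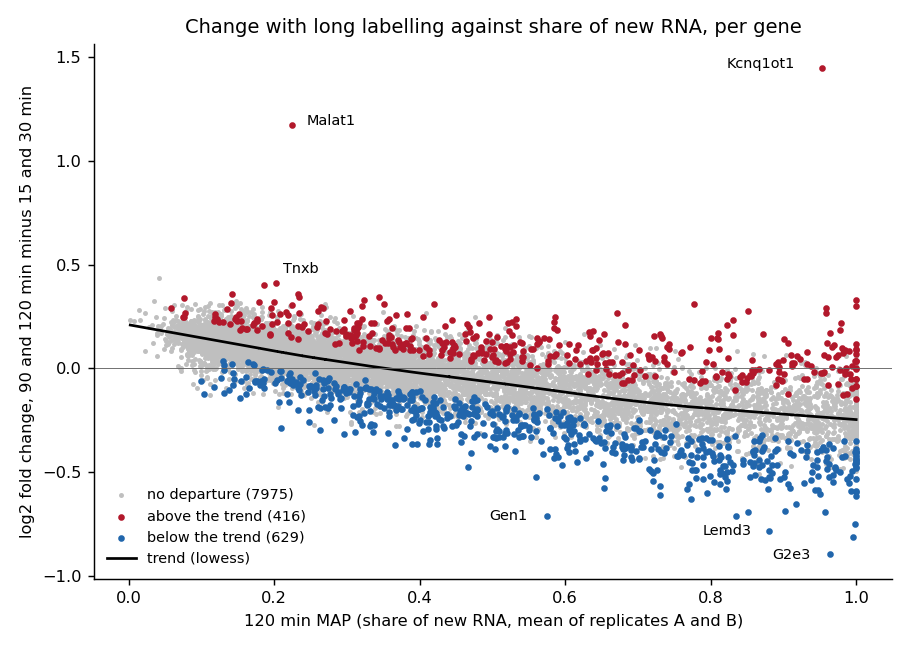
Log2 fold change of long against short labelling (y axis) against the 120 min MAP, the mean of replicates A and B (x axis), for 9020 genes averaging 100 or more reads, 1 point a gene. The black line is the smooth curve, red and blue points are the genes past the threshold above and below it, and the names mark the genes described in the text. The curve runs from 0.20 at a MAP of 0.02 to -0.24 at 0.99, and Malat1 and Kcnq1ot1 lie alone at the top.

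Above the curve, Kcnq1ot1 exceeded its predicted change by 1.68 ± 0.0665 (SE) and Malat1 by 1.10 ± 0.0436 on the log2 scale (edgeR adjusted p = 7.6e-22 for each). The 120 min MAP was 0.952 in Kcnq1ot1 and 0.225 in Malat1, so the curve predicted -0.24 for the former and 0.07 for the latter. Neat1, the RNA scaffold of paraspeckles, which neighbours Malat1 on chromosome 19, was 0.48 ± 0.0442 above its prediction. Its short libraries, at 142, 112, 152 and 172 CPM, overlapped the long ones, at 172, 166, 174 and 187 CPM. Its no4sU libraries, at 166 and 173 CPM, stood at the level of the long ones. Among genes averaging 100 or more reads, the protein-coding ones with the largest positive departures rose although most of their RNA was new. Ier3, an early response gene that modulates survival, had 105, 117, 104 and 119 CPM in the short libraries and 152, 108, 150 and 142 in the long ones, 0.55 ± 0.0552 above its prediction (adjusted p = 2.2e-09) at a MAP of 1.00. The long library 90 min replicate B lay within the short ones, and DESeq2 did not call the rise of Ier3 (adjusted p = 0.083). Crebbp, the histone acetyltransferase CBP, had 67.2, 59.5, 68.0 and 66.7 CPM and then 80.0, 69.7, 94.1 and 79.7, with no overlap (0.53 ± 0.0496 above). Its unlabelled libraries, at 59.6 and 63.5 CPM, lay within the short ones. Lcor, a corepressor of nuclear receptors, was 0.50 ± 0.0473 above, and Zfhx3, a large homeodomain factor, 0.50 ± 0.0577. Unlabelled Zfhx3, at 28.5 and 35.6 CPM, lay below all short libraries, and Lcor, at 31.3 and 54.3 CPM, on either side of them. Btg2, an antiproliferative p53 target, was 0.58 ± 0.112 above, with 7.89 to 10.4 CPM in the short and 7.82 to 14.5 CPM in the long libraries. Its rise (0.33, adjusted p = 0.019) was lost without 15 min replicate B, 90 min replicate A or 120 min replicate A (adjusted p up to 0.23) and by DESeq2 (0.11), while its departure kept an adjusted p of at most 0.017 without any single library.

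Below the curve, the genes largely repeated the list of the strongest falls. G2e3 fell by 0.66 more than its MAP of 0.964 predicted, Gen1 by 0.61 (MAP 0.576), Lemd3 and Dnm3os by 0.57 each, Zmym2 and Pcf11 by 0.51, Stk17b by 0.49 and Mcl1 by 0.47, with edgeR adjusted p-values of at most 2.6e-06. By contrast, Myc (-0.04, adjusted p = 0.63), Jun (0.00, 0.97) and Ier2 (-0.01, 0.93) did not pass the test of a departure, and neither did Gapdh, Actb and Eef1a1, which were at -0.03, -0.01 and 0.01 from their predictions.

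Lists differed in how many members departed. Cytosolic ribosomal proteins had a predicted median of 0.14 and an observed one of 0.17, with 4 members above the curve and 0 below, a count that ranged from 1 (without 15 min replicate A) to 7 (without 120 min replicate A) with single libraries left out. With the alternative curve on lost reads 40 of the 81 lay above. No respiratory chain or proteasome subunit departed from the main curve (0 of 79 and 0 of 35 by edgeR), and 6 and 2 lay above that alternative curve. Nuclear pore proteins and transport receptors stood lower than their MAP predicted in 19 of 47, against 5.65% of all genes, and higher in 1. Their predicted median was 0.01 and their observed one -0.06. Nup160, a scaffold nucleoporin, fell from 88.3 ± 1.98 to 70.7 ± 7.51 CPM (SD, n = 4), 0.26 more than predicted, and the export receptor Xpo1 went from 323 ± 8.40 to 299 ± 16.3 CPM where a rise of 0.03 was predicted (departure -0.15 ± 0.0305 SE, adjusted p = 0.00096). Its fall itself was lost without 90 min replicate B (adjusted p = 0.051). Mitosis genes lay below in 14 of 48 and above in 0. Ttk, a kinase of the spindle checkpoint, fell by 0.36 more than predicted, Kif11, the motor that separates spindle poles, by 0.26, Top2a by 0.18 and Ccna2, cyclin A2, by 0.14. The decay list had 10 of 40 below and 1 above. Cnot6l fell by 0.44 more than predicted, Dcp2 by 0.24 and the scaffold of the deadenylase complex, Cnot1, by 0.12. Of the ubiquitin list 30 of 232 lay below and 4 above (0 above without 15 min replicate B). With the alternative curve on lost reads, the counts below were 15 in the nuclear pore, 13 in the mitosis, 10 in the decay and 26 in the ubiquitin list, and without 15 min replicate B 13 remained below in the nuclear pore list. Here Nup160, Xpo1, Ttk, Kif11, Top2a, Ccna2 and Cnot1 were chosen after their values were seen.

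In other lists more members lay above the curve than below it, against 4.15% above among all genes. Of 16 p53 targets 6 lay above and 0 below (4 above without 15 min replicate B), and the predicted median of -0.19 compared with an observed 0.03, which was -0.01 with library size alone. The median departure of the members, at 0.09, was smaller than the gap between these medians. Cdkn1a, the inhibitor p21, had 117, 113, 105 and 110 CPM in the short libraries, 110 and 109 CPM at 90 min, and 147 and 140 CPM at 120 min. Its rise of 0.17 ± 0.0352 (edgeR adjusted p = 0.00023) thus came from the 120 min libraries, and it was 0.41 above its prediction. Phlda3, a repressor of Akt, was 0.27 above, and Mdm2, the ubiquitin ligase of p53, was at -0.08 where -0.24 was predicted (departure 0.16 ± 0.0380, adjusted p = 0.005, and 0.052 without 15 min replicate B). In the list of NF-kB feedback and chemokine genes 7 of 19 lay above and 1, Rel, below. Without 15 min replicate B these counts were 3 and 0, and Rel had an adjusted p of 0.1. Ptgs2, cyclooxygenase 2, had 825 ± 38.4 CPM in the short and 813 ± 67.5 CPM in the long libraries at a MAP of 0.992, a departure of 0.22 ± 0.0336 (adjusted p = 1.7e-05). Nfkbia, the inhibitor that NF-kB induces against itself, departed by 0.33 ± 0.0644 (adjusted p = 0.00054). Of the Zfp genes 19 of 325 lay above, a share near that of all genes, and 5 below (7 above and 3 below without 15 min replicate A). In the nuclear long non-coding RNAs 5 of 14 lay above and 2, Mir17hg and Tug1, below. The departure of Mir17hg was lost without 15 min replicate A, 30 min replicate B, 90 min replicate B or 120 min replicate A (adjusted p up to 0.22). Across all gene types, 25 of 290 non-coding genes lay above and 5 below, and 451 of 11175 protein-coding genes above and 644 below. Phlda3, Mdm2, Ptgs2 and Nfkbia, and Cdkn1a in its values by library, were chosen after their values were seen.

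**Figure D4:**
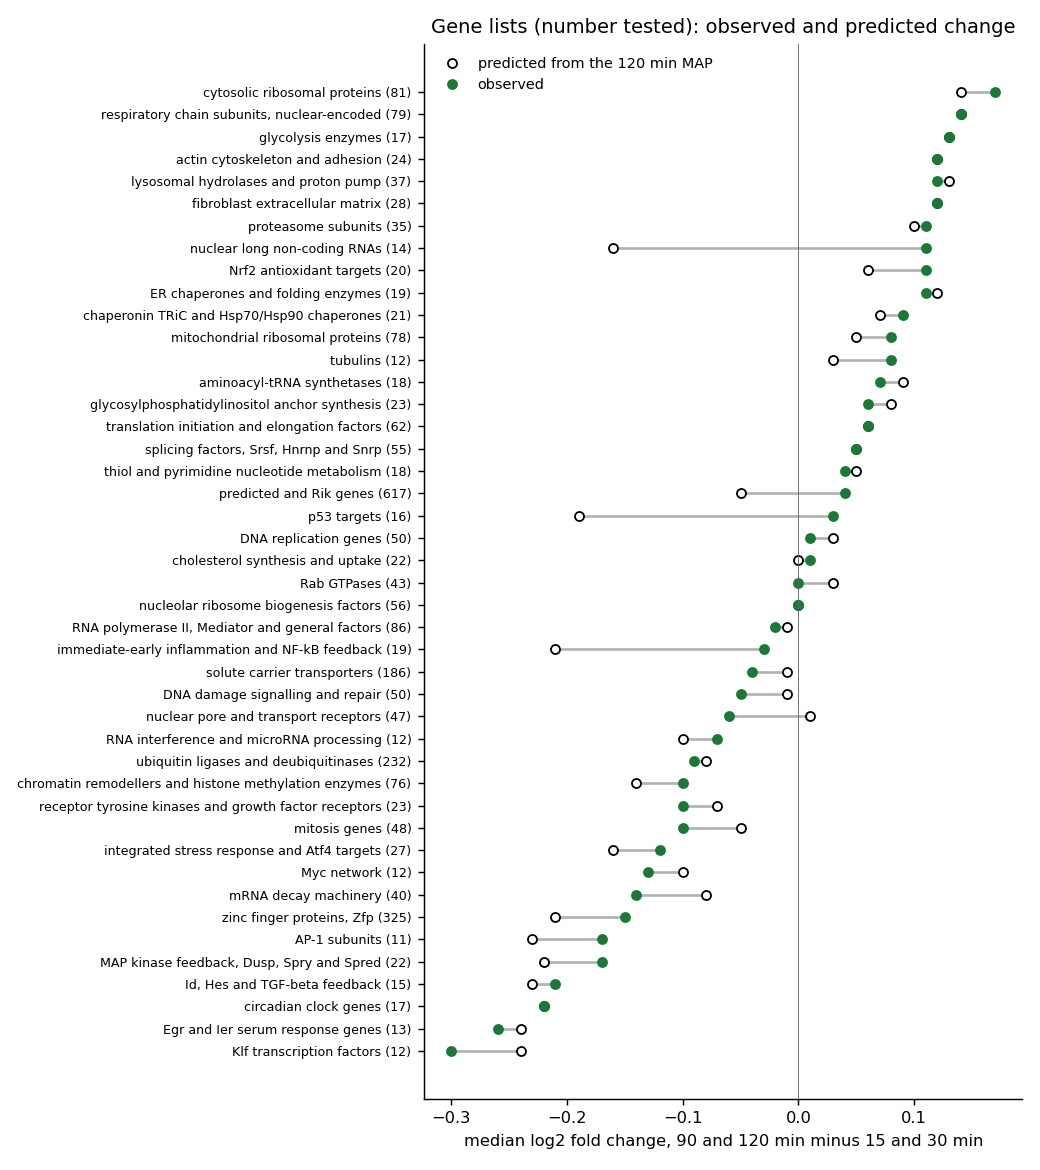
Median log2 fold change of long against short labelling (x axis) of each gene list with at least 10 tested members (y axis, number tested in parentheses), observed (green) and predicted from the 120 min MAP (open circles). Observed and predicted medians nearly coincide for most lists, as for the respiratory chain at 0.14. The nuclear long non-coding RNAs, the p53 targets and the NF-kB list lie to the right of their predictions, and the nuclear pore and mitosis lists to the left. A gap between medians is not the median departure of the members, which was 0.19, 0.09, 0.09, -0.06 and -0.08 in these lists, in that order.

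The MAP also divides each level into an old part, CPM times 1 minus MAP, and a new part. RNA that was present before 4sU can only decay, and over 9020 genes the median old part fell by 0.46 on the log2 scale from short to long labelling. It was nevertheless higher in all 4 long than in all 4 short libraries in 95 of these 9020 genes. The total level was so in 1636 of the 11480 tested genes (14.3%). Of the 95, 92 had been called higher. That is no separate support, because a higher old part with a growing new part brings a higher total. Malat1 led these 95 genes. Its old part was 1030, 965, 992 and 1190 CPM in the short libraries and 1430, 1920, 2420 and 2560 CPM in the long ones, while its new part reached 723 CPM at 120 min. Its total thus rose mostly in reads counted as old. Col12a1 was also among them, from a mean of 37.8 to 46.1 CPM. Kcnq1ot1 was the reverse of Malat1: its old part went from 12.5 to 3.40 CPM, and its new part was 27.0 CPM at 90 min and 44.6 CPM at 120 min. In G2e3 the old part went from 37.4 to 2.92 CPM and the new part was 21.1 CPM at 90 and 20.0 CPM at 120 min. These values are on the scale of relative levels, in which an old part can rise where the rest of the library falls. The old part of Malat1 rose by 1.0 on the log2 scale, and the next largest rise was 0.39. Why these old parts rose was not tested.

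Base content was examined because 4sU replaces uridine, so a transcript's T share sets how many positions it can occupy. It was computed for 9011 genes from 1 transcript of each in GENCODE M21, and this comparison was added after the departures were seen. Genes below the curve had a median T share of 27.6%, genes above it 21.8% and all genes 24.4%. Across genes, Spearman's rho of the T share was -0.397 with the departure and 0.0449 with the MAP itself. The rho with the departure describes genes that share libraries and is no test. The same rho was 0.032 for 30 against 15 min and -0.179 for 60 min against the short libraries. Replicates of 1 duration gave -0.206 (30 min, A minus B) to 0.111 (90 min), and the 2 unlabelled libraries -0.434, so a relation of that size also occurred between libraries that held no 4sU. The GC share, with a rho of 0.415, moved with the departure about as closely. Transcripts on both sides of the curve were longer than the 3128 bases of the median gene, with medians of 4455 below and 3492 above. Transcript length had a rho of -0.17 with the departure. Which of these properties, if any, the departures follow was not tested.

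The range of T shares can be read in the coding sequences of the genes that departed most. For each of 3 genes below and 3 above the curve, the 120 bases whose T share is nearest to that of the whole coding sequence are printed 5′ to 3′ from the GENCODE M21 transcripts (GRCm38), with each T, a position that 4sU can take in the RNA, in capitals. Below the curve, G2e3 has 34 T in its window (bases 526 to 645 of the coding sequence), Gen1 has 31 (bases 1 to 120) and Lemd3, the exception, has 23 (bases 13 to 132).
G2e3: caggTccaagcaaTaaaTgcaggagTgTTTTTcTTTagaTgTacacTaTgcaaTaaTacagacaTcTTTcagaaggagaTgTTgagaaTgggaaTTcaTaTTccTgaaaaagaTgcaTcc
Gen1: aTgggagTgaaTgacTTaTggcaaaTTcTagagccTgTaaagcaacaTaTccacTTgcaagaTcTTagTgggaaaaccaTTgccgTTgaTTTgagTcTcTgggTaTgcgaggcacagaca
Lemd3: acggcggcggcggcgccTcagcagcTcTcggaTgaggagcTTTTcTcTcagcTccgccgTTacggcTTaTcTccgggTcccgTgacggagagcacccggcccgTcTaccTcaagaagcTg
Above the curve, Btg2 (bases 25 to 144) has 24 T, Ier3 (bases 52 to 171) has 25 and Crebbp (bases 160 to 279) has 23.
Btg2: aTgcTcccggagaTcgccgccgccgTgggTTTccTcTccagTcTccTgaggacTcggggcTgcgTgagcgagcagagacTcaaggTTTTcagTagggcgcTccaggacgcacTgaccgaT
Ier3: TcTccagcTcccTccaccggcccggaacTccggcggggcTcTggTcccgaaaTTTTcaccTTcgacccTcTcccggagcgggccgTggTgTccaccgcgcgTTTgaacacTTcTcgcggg
Crebbp: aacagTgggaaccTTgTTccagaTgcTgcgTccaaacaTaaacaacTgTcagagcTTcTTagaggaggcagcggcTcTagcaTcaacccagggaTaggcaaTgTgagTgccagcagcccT
The T share of the whole coding sequence was 28.6% in G2e3, 26.2% in Gen1 and 19.3% in Lemd3, and 19.6% in Btg2, 21.2% in Ier3 and 19.4% in Crebbp. Over the whole transcript, as in the shares above, G2e3 had 30.7%, Gen1 27.8% and Lemd3 24.5%, and Btg2 27.5%, Ier3 24.8% and Crebbp 22.9%. By that measure Btg2 lay near the median of genes below the curve (27.6%), and Ier3 and Lemd3 near that of all genes (24.4%). Among genes averaging 100 or more reads, the non-coding ones furthest above the curve did not have few T over the whole transcript either. Over its 93092 annotated bases Kcnq1ot1 had 26.4% and Malat1, over 6983 bases, 28.9%. Bases 67 to 186 of the Malat1 transcript, with 35 T, show this.
Malat1: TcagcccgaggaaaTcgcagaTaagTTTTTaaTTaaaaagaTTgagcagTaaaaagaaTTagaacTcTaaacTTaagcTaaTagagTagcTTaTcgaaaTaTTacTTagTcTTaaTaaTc

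Sorted by T share into 5 equal classes, genes shifted from above to below the curve from each class to the next. In the lowest class, with 8.7% to 21.3% T, 10.6% of genes lay above and 0.666% below, and in the highest, with 27.7% to 35.4% T, 1.44% lay above and 17.4% below. The order held among genes with much new RNA (MAP above 0.5), where 19.1% lay above in the lowest class and 26.7% below in the highest, and among the others, with 6.71% above and 12.4% below. When the T share was added to the curve, a setting chosen after seeing the data, 784 genes departed, 350 above and 434 below, of which 658 had departed before. The lists moved unequally. Below that curve were 14 mitosis genes, as before, 9 of the decay list, 11 of the nuclear pore list in place of 19 and 19 of the ubiquitin list in place of 30. Above it were 6 p53 targets and 5 genes of the NF-kB list.

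**Figure D5:**
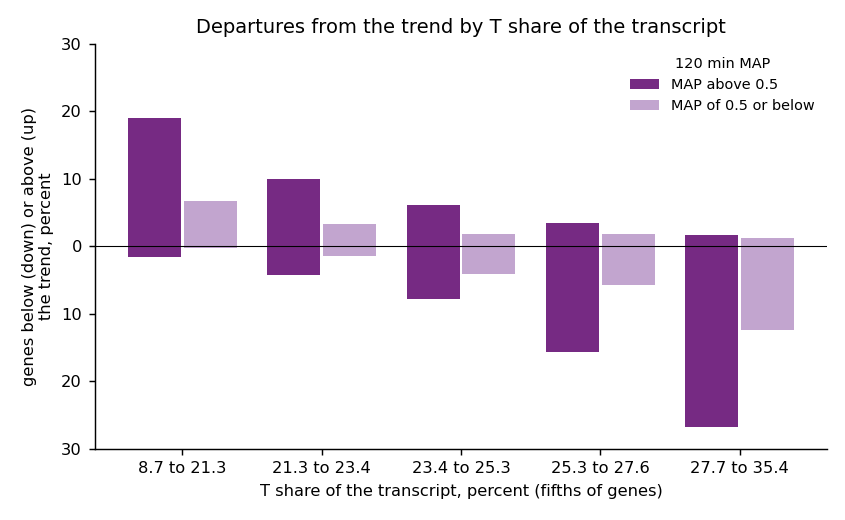
Percent of genes above the curve (bars upward) and below it (bars downward) in 5 equal classes of genes by the T share of the transcript (x axis, percent), for genes with a 120 min MAP above 0.5 (dark) and of 0.5 or below (light). From the lowest to the highest class the bars shift from above to below the curve at both levels of MAP.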

How the data were processed

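The authors deposited 1 table for all libraries with an estimated count of reads per gene, as the authors computed it per the file headers, of which 20.4% are not whole numbers, and new-to-total ratios as a fraction (the MAP, from 0 to 1), per the file headers. The same table holds the deposited alpha and beta parameters of each ratio, on a score scale, which were not used. The submitters' processing notes name cutadapt, Bowtie2 2.3.0 and STAR 2.7.10b. The sources used here give no genome build, strand setting or treatment of reads with several matches.

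Counts were rounded and fitted with edgeR 4.0.16 (R 4.3.3) with TMM factors (0.978 to 1.02 over the 8 libraries), the filter filterByExpr, a mean for each of the 4 durations and the quasi-likelihood test of mean(90, 120 min) minus mean(15, 30 min), two-sided, with Benjamini-Hochberg adjustment at 0.05 over all genes tested. A gene's predicted change came from a lowess curve (span 0.3, 3 iterations) on the mean 120 min MAP, and was entered as an offset of the long libraries to test the departure. The uncertainty of the MAP itself did not enter this test. CPM used TMM factors over all 12 libraries. Both tests were tested on simulated data. Alternatives included DESeq2 1.42.0, other scalings and filters, other curves and leaving out each library.

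The named genes are the 10 largest rises and 10 largest falls past the threshold with no overlap in CPM, the 8 highest and 8 lowest departures, up to 3 members in each direction of a list, all averaging 100 or more reads, and 8 reference transcripts. The text describes some of these. Genes named outside this rule, apart from the cell type marker Cd68, are marked as chosen after their values were seen. The members and the 53 gene lists, which overlap in part, were chosen with earlier results of these data known. Gene locations, types and base content came from GENCODE M21 (GRCm38) by gene ID, which held 17376 of the 17419 IDs.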

Additional observations from a re-analysis of the deposited data

Results flagged for a closer look

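In 68 sets of 4 libraries, each the short or the long libraries of a named gene, 3 had 1 library far from the others, where chance gives about 1 in 20. In the long libraries of Uqcc3, 90 min replicate A was at 12.7 CPM and the others at 15.2 to 15.5 CPM. In the short libraries of Dnm3os, 15 min replicate A was at 27.3 CPM and the others at 23.8 to 24.1 CPM. In the short libraries of Crebbp, 15 min replicate B was at 59.5 CPM and the others at 66.7 to 68.0 CPM.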

How the results depend on the processing

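Of 4081 genes past the threshold (1859 higher, 2222 lower), 2715 (1181 higher) were called with all 12 libraries in the fit, 2500 by DESeq2 (1114 higher, 1386 lower), all 2500 among the 4081, and 155 against a fold of 1.2 (11 higher, 144 lower). Library size alone left 1001 higher. Leaving out each library gave 3332 to 3668 genes, 1511 to 1681 of them higher and 1821 to 2039 lower. Of 1125 departures from the curve, pooled durations gave 678 (281 above, 397 below), and the loss model, in which a fitted share of a library's new reads (28.3% at 90 min and 35% at 120 min) is missing, gave 817 above. Leaving out each library gave 655 to 890 departures, 255 to 382 above and 400 to 528 below, with the lowest counts without 15 min replicate A and 311 above without 15 min replicate B. The cause was not tested, beyond that these last fits hold fewer samples. Under the loss model the departure of Ccn2 was lost (0.0, edgeR adjusted p = 1.0), and Fosl2, at -0.01 from the main curve and not past its threshold, lay above (0.14, adjusted p = 0.00083). The labels do not say whether the replicate letters pair the libraries. The A minus B differences of 2 durations correlated weakly, at -0.0121 to 0.107, with 1 of 6 over 0.1. With the replicate block 4268 genes passed (1967 higher) and 1302 departed. Depth limits genes with few reads, such as Fos.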

Other observations

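The genes of this paragraph and the next were chosen after their values were seen. Lncpint, a long non-coding RNA, had 2.46, 3.44, 3.19 and 3 CPM in the short libraries and 10.4, 8.11, 13.8 and 13.7 CPM in the long ones, a log2 fold change of 1.89 ± 0.134 (SE, edgeR adjusted p = 7.5e-14) on a mean of 81.9 reads. Its MAP was 0.973, and its 60 min libraries, at 9.71 and 6.03 CPM, already lay above all short ones. The unlabelled libraries were at 2.08 and 2.43 CPM, below all short ones.

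Tfrc, the transferrin receptor, went against the pattern of transcripts with little new RNA. At a MAP of 0.137 it had 555, 542, 554 and 581 CPM in the short libraries and 525, 533, 526 and 505 CPM in the long ones, with no overlap. The curve predicted a rise of 0.12 and the observed change was -0.10 ± 0.0252 (edgeR adjusted p = 0.0013), which was not called with all 12 libraries in the fit. Agps, an enzyme of ether lipid synthesis, went from 128 ± 4.20 to 118 ± 5.46 CPM (SD, n = 4) at a MAP of 0.161. Its fall was lost without 30 min replicate B (adjusted p = 0.055). These were 2 of the 4 genes with a MAP below 0.2 that fell, against 1284 that rose.

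Among the solute carriers, Slc38a2, which imports neutral amino acids, went from 574 ± 10.9 to 387 ± 26.8 CPM (SD, n = 4), 0.35 below its prediction, and Slc30a1, a zinc exporter, from 30.2 ± 1.31 to 21.1 ± 1.02 CPM. Of 186 tested solute carriers 25 rose and 30 fell, against 16.2% and 19.4% of all genes, so neither share was above the background. With library size alone 15 rose and 44 fell. Above the curve lay 7 (4 without 30 min replicate A), a share near the 4.15% of all genes, and below it 15.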
